A study of Mus musculus with 6 samples.

Results

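Macrophages that had met lipopolysaccharide (LPS) for 4 h were set against macrophages that had met it for 2 h, to separate the early from the late part of the response. LPS is a component of the wall of Gram-negative bacteria and the ligand of Toll-like receptor 4. The cells were bone marrow-derived macrophages (BMDMs), which are primary cells grown from bone marrow progenitors, and they came from 7-week-old female C57BL/6J mice. The mice were wild type or Tut7-/-, a knockout made with CRISPR/Cas9 of the gene for terminal uridyltransferase 7 (TUT7), an enzyme that adds uridines to the 3′ ends of RNA. All cells were differentiated for 7 days with 20% L929-conditioned medium, and M-CSF at 10 ng/ml followed before stimulation. The 4 LPS libraries were 4 of the 6 in the series, with 1 library for each genotype and time. The other 2 were unstimulated libraries (Ctrl), 1 of each genotype. No condition thus had a replicate. The design note mentions duplicates, and whether a library joins several samples or stands for a single one is not stated in the sources used, nor is the number of animals behind it.

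The assay was gene-specific TAIL-seq, in which a linker is ligated to RNA 3′ ends and chosen transcripts are then amplified with gene-specific primers. The primers that the methods give are those for Zc3h12a and Il6, and whether Tnf, Il10, Usp18 or any other gene had a primer of its own is not stated. A count is therefore a share of an amplified pool, and a fold below is a ratio of 2 shares of a library and not of RNA levels in the cell. The wild-type libraries held 44626 reads at 2 h and 56718 at 4 h, and those of Tut7-/- 55922 and 43540. Together these are 200806 reads, in which 640 genes had a read and 171 genes had 10 or more reads. These 171 genes were compared. The 5 most abundant genes took between 90.5% and 93.5% of each LPS library. Tut7 and Tut4 had 0 reads in each of the 6 libraries, so the reads cannot serve as a check on the genotype labels. Of 12 macrophage markers, 2 had a read, at 0 to 4 reads per library in sum, and the lists of neutrophil, lymphocyte, dendritic cell, erythroid and stromal markers had 0 reads in the LPS libraries. The labelled cell type was thus not checked by markers in this amplified pool.

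Toll-like receptor 4 signals through NF-kB and MAP kinases to a first wave of genes, among them Tnf, and to feedback inhibitors. A later wave, to which Il6 and Il10 belong in macrophages, needs new transcription factors or chromatin remodelling, and interferon-induced genes follow secreted type I interferon. Many mRNAs of the first wave are short-lived because AU-rich elements and the RNase Regnase-1 mark them for decay. This is background, and the counts measured neither synthesis nor decay.

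Promoters of Tnf and Il6 are shown first, because the former stands for the early and the latter for the late cytokines and their shares of reads moved in opposite directions. RefSeq promoter windows (GRCm38.p6) run from 250 bases before to 50 bases after the start of the gene. The Tnf window lies at chr17:35201958-35202257 on the minus strand and the Il6 window at chr5:30012864-30013163 on the plus strand. Capitals mark matches to TATAAA, to GGGNNTTTCC (an NF-kB motif) and to TGANTCA (an AP-1 motif), searched on both strands, and no match overlapped another.
Tnf: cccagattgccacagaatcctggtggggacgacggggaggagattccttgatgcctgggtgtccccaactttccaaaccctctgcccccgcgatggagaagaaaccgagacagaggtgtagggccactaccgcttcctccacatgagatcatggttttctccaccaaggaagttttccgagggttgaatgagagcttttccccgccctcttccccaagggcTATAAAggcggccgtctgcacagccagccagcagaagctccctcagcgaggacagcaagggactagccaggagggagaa
Il6: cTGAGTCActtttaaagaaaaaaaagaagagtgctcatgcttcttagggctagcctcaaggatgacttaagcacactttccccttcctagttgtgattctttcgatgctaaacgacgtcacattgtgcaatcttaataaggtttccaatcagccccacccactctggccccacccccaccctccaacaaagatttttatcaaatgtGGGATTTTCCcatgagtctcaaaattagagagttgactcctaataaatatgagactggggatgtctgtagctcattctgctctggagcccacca
Tnf held 1 match to TATAAA and 0 to the other motifs, and Il6 held 1 NF-kB match, 1 AP-1 match and 0 to TATAAA. Over 27025 RefSeq promoter windows of the same 300 bases, TATAAA was found in 14.2%, the NF-kB letters in 1.62% and the AP-1 letters in 7.93%. Of the 45 genes named by rule, 33 had a window. The NF-kB letters were in 3 of these (Il6, Nfkbia and Vim) and the AP-1 letters in 4 (Il6, Trim30a, Anxa2 and Rpl9). TATAAA was in 7 (Tnf, Il1b, Nfkbia, Gpr65, Vim, Lipa and Anxa2). The named genes were chosen with earlier results known, and nothing particular to them is read from these counts. A match is a description of letters, and the absence of one says only that these letters were not in this window.

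Tnf, the early inflammatory cytokine (ENSMUSG00000024401.14, chromosome 17 from 35199381 to 35202007, minus strand, mm10), lost share of reads between 2 h and 4 h in both genotypes. In wild type it had 1373 reads at 2 h (3.08%) and 826 reads at 4 h (1.46%). The Tut7-/- libraries held 1809 Tnf reads (3.23%) and 956 (2.20%). Both 4 h libraries were lower than both 2 h libraries, and all 4 were above the Ctrl libraries, where Tnf held 0.661% in wild type and 0.57% in Tut7-/-. The share was 2.11-fold lower at 4 h in wild type, a log2 ratio of -1.08 (95% interval -1.21 to -0.95), and 1.47-fold lower in Tut7-/-, at -0.56 (-0.67 to -0.45). These exact intervals hold counting error only: the reads carry no molecular identifiers, so PCR copies are counted as if independent, and an interval sets 1 library against another rather than 1 condition against another. The log2 ratio was 0.52 (0.35 to 0.69) higher in Tut7-/- than in wild type, but with TMM factors, another library scaling, this difference turned to -0.30.

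**Figure D1:**
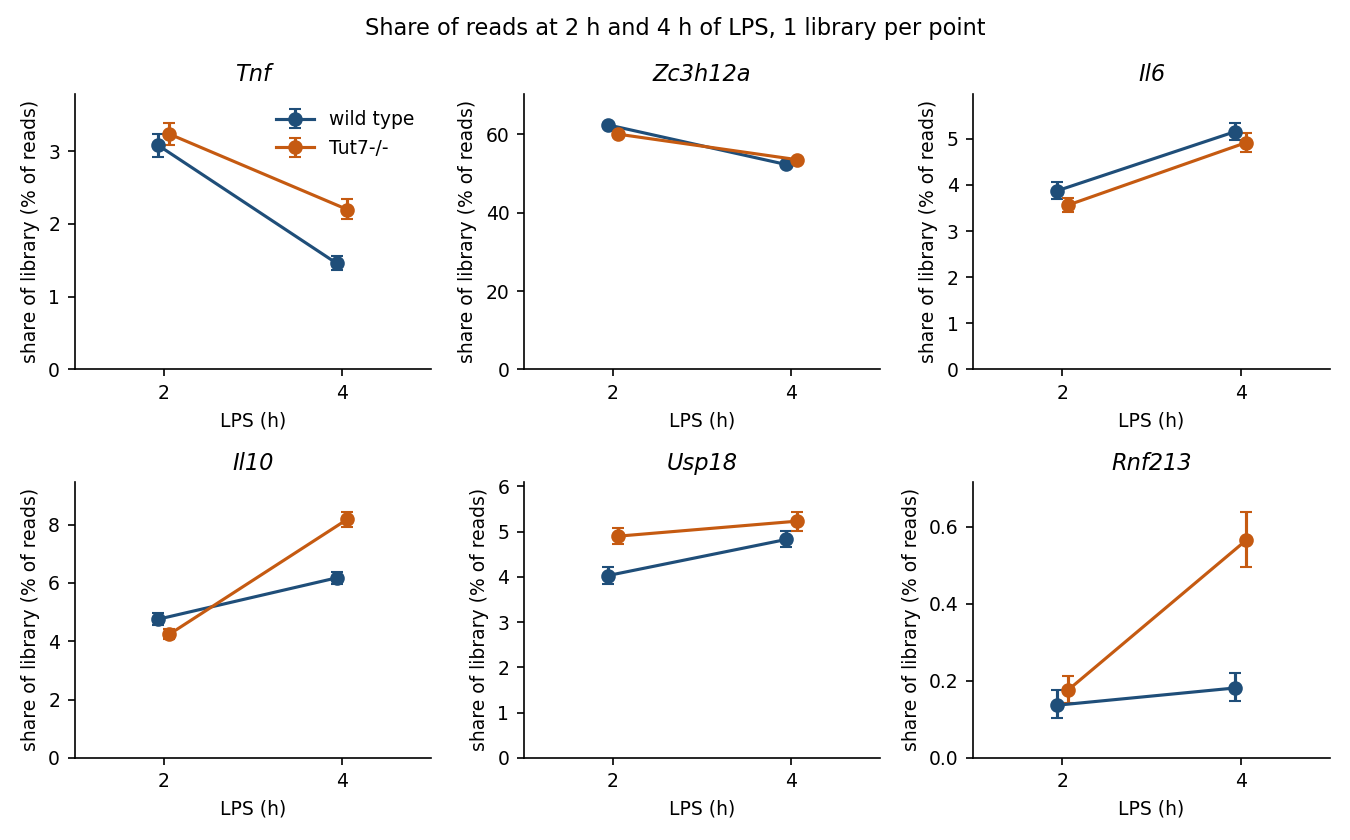
Share of reads in the library (y axis, percent, from 0) at 2 h and 4 h of LPS (x axis) for 6 genes, with 1 library per point and exact 95% binomial intervals of counting error as bars. Tnf and Zc3h12a had smaller shares at 4 h in both genotypes, and Il6, Il10, Usp18 and Rnf213 larger ones, with Rnf213 reaching 0.565% in Tut7-/-. With other scalings the direction turned for Zc3h12a in wild type and for Usp18.

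Il6, the inflammatory cytokine interleukin-6 (ENSMUSG00000025746.11, chromosome 5 from 30013114 to 30019981, plus strand), had a larger share at 4 h. In wild type, 1728 reads at 2 h (3.87%) stood against 2925 reads at 4 h (5.16%). In Tut7-/-, 1991 reads (3.56%) stood against 2141 reads (4.92%). The ratio of shares was 1.33 (1.25 to 1.41) in wild type and 1.38 (1.3 to 1.47) in Tut7-/-, and the log2 ratios differed by 0.05 (-0.07 to 0.18) between genotypes at this scaling. With TMM factors the difference of Tut7-/- from wild type was -0.76. The Ctrl libraries held 0 Il6 reads in wild type, which allows a share of up to 0.0115%, and 0.00934% in Tut7-/-, so the step from Ctrl to 2 h was larger than that from 2 h to 4 h.

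Il10 encodes interleukin-10, an anti-inflammatory cytokine that macrophages secrete (ENSMUSG00000016529.5, chromosome 1 from 131019845 to 131024974, plus strand). It went from 2122 reads (4.76%) at 2 h to 3501 reads (6.17%) at 4 h in wild type. For Tut7-/- the counts were 2367 reads (4.23%) and 3563 reads (8.18%). Both 4 h libraries were above both 2 h libraries, and the 4 h library of Tut7-/- was the highest of the 4. The ratio was 1.3 (1.23 to 1.37) in wild type and 1.93 (1.83 to 2.04) in Tut7-/-, and the log2 ratio was 0.57 (0.47 to 0.68) larger in Tut7-/-. This difference also turned, to -0.24 with TMM factors and -0.47 with DESeq2 size factors.

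Library scaling matters here, because a few genes filled each library. With TMM factors every log2 ratio of 4 h to 2 h moved by 0.66 in wild type and by -0.15 in Tut7-/-, and with DESeq2 size factors by 0.70 and -0.34. These shifts are larger than the counting error of the abundant genes, and since they differ between genotypes they also move each difference between genotypes. Comparisons with Ctrl moved further. TMM factors took wild-type Ctrl as 59981 reads in place of 26027, and wild-type 4 h as 25138 in place of 56718. Values set beside Ctrl are shares of the library, before any such factor. A ratio of 2 genes within a library does not depend on the library size. There were 1.55 Il10 reads per Tnf read in the wild-type 2 h library and 4.24 in that of 4 h, against 1.31 and 3.73 in Tut7-/-. The wild-type change was 2.74-fold, with an interval of 2.48 to 3.04, and that of Tut7-/- 2.85-fold, with an interval of 2.59 to 3.13. These overlap, so the shift from Tnf towards Il10 was not separable in size between the genotypes. The ratio of Il6 to Tnf changed 2.81-fold in wild type (interval 2.53 to 3.12) and 2.03-fold in Tut7-/- (interval 1.84 to 2.25). Il10 against Il6 changed 0.975-fold in wild type, with an interval of 0.90 to 1.06 that includes 1, and 1.4-fold (1.29 to 1.52) in Tut7-/-. The pairs were chosen after the values of these genes had been seen. Under each of the 4 other scalings tried, the log2 ratio was below 0 for Tnf and above 0 for Il6 and Il10 in both genotypes, though with Zc3h12a and Il6 left out of the library size it was as small as 0.040 for Il10 and 0.077 for Il6 in wild type, with intervals that included 0.

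Zc3h12a, which encodes Regnase-1, an RNase that degrades cytokine mRNAs and is itself induced by LPS, was the most abundant gene in every library (ENSMUSG00000042677.7, chromosome 4 from 125118423 to 125127840, minus strand). In wild type it took 62.5% of the 2 h library and 52.3% of the 4 h library. The shares in Tut7-/- were 60.1% and 53.6%. The log2 ratio was -0.26 (-0.28 to -0.23) and -0.17 (-0.19 to -0.14), but in wild type it turned positive with TMM factors, at 0.41. Against Tnf, reads of Zc3h12a changed 1.77-fold in wild type (interval 1.62 to 1.93) and 1.31-fold in Tut7-/- (interval 1.21 to 1.42), so of these 2 early genes Tnf lost more. Nfkbia, the inhibitor of NF-kB, and Il12b had 0 reads in each LPS library, and Il1b had 1, 2, 1 and 0 reads in wild type at 2 h and 4 h and Tut7-/- at 2 h and 4 h. Nothing can be said of these genes.

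The list of 45 early LPS response genes had 8 members with a read, of which Zc3h12a and Tnf had 10 or more. Both were lower at 4 h in both genotypes at any size, with list medians of -0.67 in wild type and -0.36 in Tut7-/- on the log2 scale. Over all 171 genes the medians were -0.35 and 0.09, the former being the value of a gene with 0 reads at both times. Over the 136 genes in wild type and 133 in Tut7-/- that had a value, with genes at 0 reads in 1 library set to their bound, they were -0.76 and -0.12. At any size, 32.2% of the 171 genes were lower in wild type and 24% in Tut7-/-, and 7.6% in both. The list of 32 late response genes had 5 members with a read and again 2 with 10 or more, Il10 and Il6. Both were higher in both genotypes, with medians of 0.39 and 0.71, while 18.1% of the 171 genes were higher in wild type, 21.6% in Tut7-/- and 5.26% in both. With 2 members each, the lists describe these 4 genes and no wider wave.

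On the list of 32 genes drawn up as feedback inhibitors of Toll-like receptor 4 signalling, 4 had 10 or more reads, namely Zc3h12a, Il10, Usp18 and Azi2. Of these, 3 were higher at 4 h in both genotypes at any size and Zc3h12a was lower. Over the 171 genes, 5.26% were higher in both genotypes and 7.6% lower in both. The directions of Usp18 and, in wild type, of Zc3h12a turned with other scalings, so nothing particular to the list is read from these counts. Azi2 (NAP1) is an adaptor of the kinase TBK1, and this role is not that of an inhibitor, so its place on the list is doubtful. It had the largest ratio of the 4, from 2 to 79 reads in wild type and from 4 to 14 reads in Tut7-/-. The ratios were 31.1 (8.32 to 261) and 4.5 (1.41 to 18.8). Azi2 overlaps Cmc1 on the other strand, and its reads cannot be told apart from those of Cmc1 if counting ignored strand.

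Interferon-induced genes gave 16 of 76 with a read and 5 with 10 or more. At any size, 2 were higher and 2 lower in wild type, and 3 higher and 0 lower in Tut7-/-, with medians of 0.26 and 0.04. Over all 171 genes, 18.1% were higher and 32.2% lower in wild type, and 21.6% and 24% in Tut7-/-. With 5 members, nothing particular to the list is read from these counts. Usp18, a protease that removes ISG15 from proteins and dampens interferon receptor signalling (chromosome 6 from 121245906 to 121270917), had 1798 reads (4.03%) in wild type at 2 h and 2738 (4.83%) at 4 h. The knockout libraries held 2741 reads (4.90%) and 2278 (5.23%). Its ratio was 1.20 (1.13 to 1.27) and 1.07 (1.01 to 1.13), and in Tut7-/- the log2 ratio changed sign with TMM factors, to -0.057. Rnf213, a large E3 ubiquitin ligase induced by interferon, went from 61 reads (0.137%) to 103 reads (0.182%) in wild type. The knockout counts were 98 reads (0.175%) and 246 reads (0.565%). This is 3.22-fold (2.54 to 4.12) in Tut7-/- and 1.33-fold (0.959 to 1.85) in wild type, and the log2 ratio was 1.28 (0.71 to 1.85) larger in Tut7-/-. With TMM factors the wild-type log2 ratio was 1.07 and the difference 0.46 (-0.10 to 1.03). Trim30a, an interferon-induced inhibitor of NF-kB signalling, fell from 32 reads to 2 in wild type, and had 17 and 5 reads in Tut7-/-, where the interval of the log2 ratio, -3.20 to 0.09, included 0. Stat2, a transcription factor of interferon signalling, had 10 and 0 reads in wild type and 3 and 0 in Tut7-/-. Trim30a and Stat2 reads thus lay mostly at 2 h, while Usp18 and Rnf213 kept or gained share by 4 h at this scaling.

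Across all genes, a gene was called where its interval left out equal shares and the ratio was 2-fold or more. In wild type 27 genes (15.8% of 171) were called higher at 4 h and 51 (29.8%) lower, and in Tut7-/- 31 (18.1%) were higher and 36 (21.1%) lower. TMM factors gave 42 higher against 38 lower genes in wild type and 30 against 42 in Tut7-/-, so the larger number of lower genes in wild type depended on the scaling. The calls seldom met. Of the 171 genes, 5 (2.92%) were called higher in both genotypes, 8 (4.68%) lower in both and 6 (3.51%) in opposite directions. Genes called higher in both were CT010467.1, 4930589L23Rik, Azi2, Pcgf5 and Ccl9, and those called lower in both were Zfp622, Wdr34, Gm47079, Gpr65, mt-Atp6, Dcxr, Tlk1 and Ctsd. The wild-type call of Dcxr ended with TMM factors, at a log2 ratio of -0.86 and an interval that included 0. That of Tlk1 ended too, at -0.69, under 2-fold though with an interval that left out 0. That of Pcgf5 rested on the 0.5 read added to each count, and with Zc3h12a and Il6 left out of the library size its interval included 0.

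**Figure D2:**
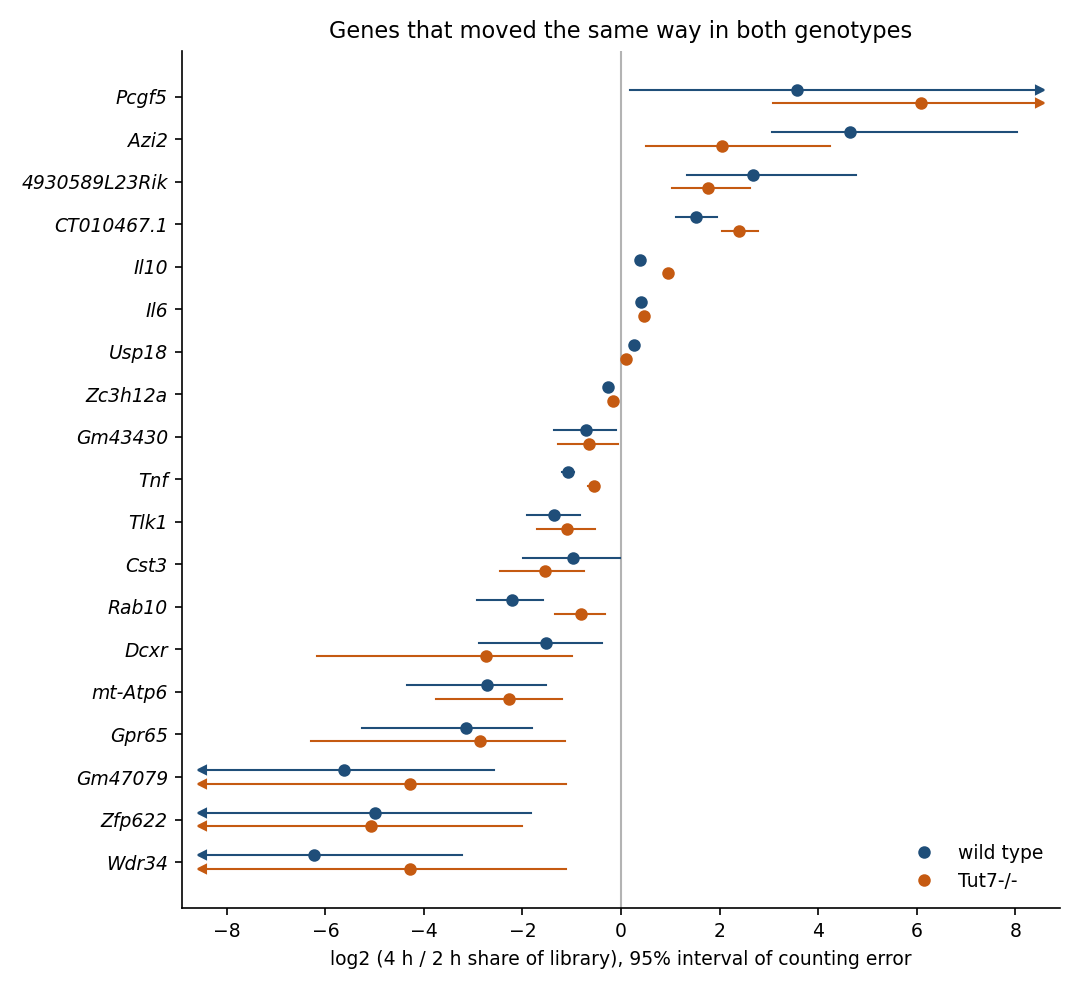
Log2 ratio of the share at 4 h to that at 2 h (x axis) for the genes named because they moved the same way in both genotypes with 30 or more reads (y axis), wild type in blue and Tut7-/- in orange. Bars are exact 95% intervals of counting error, and an arrow marks an interval without an end, where 1 of the libraries had 0 reads. Intervals are narrow for the cytokines, such as 0.30 to 0.45 for Il10 in wild type, and wide for Pcgf5 or Wdr34.

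CT010467.1, annotated as an rRNA gene on chromosome 17 from 39846353 to 39848827 (minus strand, mm10), was called higher in both genotypes and had reads in every library. It had 66 reads (0.148%) at 2 h and 241 reads (0.425%) at 4 h in wild type. The Tut7-/- libraries held 77 reads (0.138%) and 317 reads (0.728%). The ratio was 2.87 (2.18 to 3.83) and 5.29 (4.11 to 6.87). The Ctrl libraries held 0.599% and 0.64%, so the share of the library was low at 2 h in both genotypes. By 4 h this share was below that of unstimulated cells in wild type and above it in Tut7-/-. The order against Ctrl depended on the scaling. With TMM factors wild type at 4 h was above Ctrl, and with DESeq2 size factors Tut7-/- at 2 h was above Ctrl. Without the 10 most abundant genes in the library size, 2 h was slightly above Ctrl in both genotypes. The counts were then 66 of 1876 reads at 2 h against 156 of 4658 in Ctrl in wild type. In Tut7-/- they were 77 of 2261 against 137 of 4504. The protocol depletes rRNA before amplification, and the part of depletion in these shares was not tested. CT010467.1 overlaps Gm42418 and AY036118.

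The same order of library shares, low at 2 h and higher at 4 h, was seen for the long noncoding RNA 4930589L23Rik, a lincRNA on chromosome 3. It had 242 reads (0.93%) in wild-type Ctrl, 4 at 2 h and 36 at 4 h. The ratio of 4 h to 2 h was 7.08 (2.54 to 27.4) in wild type and 3.47 (2.04 to 6.12) in Tut7-/-, where it had 20 and 54 reads. Its share at 4 h, 0.0635% in wild type and 0.124% in Tut7-/-, stayed below that of Ctrl at this scaling. Pcgf5, a Polycomb group RING finger protein, had 0 reads at 2 h in both genotypes and 7 and 26 at 4 h, or at least 1.84-fold higher in wild type and at least 11.1-fold in Tut7-/- when 3 reads are taken as the limit of a count of 0. The chemokine gene Ccl9 likewise had 0 reads at 2 h, with 16 at 4 h in wild type and 12 in Tut7-/-.

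Tlk1 and Gpr65 had smaller shares at 4 h in both genotypes. Of the 61 signalling and growth control genes listed, they and Ccny alone had 10 or more reads. All 3 were called lower in wild type, and Tlk1 and Gpr65 were called lower in Tut7-/- too, where Ccny had a larger share at 4 h. The list medians were -1.35 and -1.10, which describe 3 genes. Beside these, 29.8% of all 171 genes were called lower in wild type and 21.1% in Tut7-/-, with the medians given above. Gpr65, a proton-sensing G protein-coupled receptor of immune cells, went from 31 reads to 4 in wild type and from 23 to 2 in Tut7-/-. The share was 9.85-fold and 8.95-fold lower, with log2 ratios of -3.15 (-5.26 to -1.80) and -2.87 (-6.29 to -1.15). Tlk1, the Tousled-like kinase of chromatin assembly, had 89 and 44 reads in wild type and 97 and 35 in Tut7-/-. The share was smaller 2.57-fold in the former and 2.16-fold in the latter. With TMM factors the wild-type log2 ratio of Tlk1 was -0.69, under 2-fold. Both genes had larger library shares in Ctrl than at 2 h, Gpr65 at 0.277% and 0.308% and Tlk1 at 1.35% and 1.19%. Each thus lost share in both steps at this scaling. Tlk1 overlaps Gorasp2 on the other strand.

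Rab10, a small GTPase that brings Toll-like receptor 4 to the cell surface in mouse macrophages, was the single gene with 10 or more reads of 59 membrane traffic genes. It had 96 reads (0.215%) in wild type at 2 h and 26 (0.0458%) at 4 h. Reads in Tut7-/- numbered 109 (0.195%) and 48 (0.110%). This is a loss of 4.69-fold in wild type, at a log2 ratio of -2.21 (-2.92 to -1.59), and of 1.77-fold in Tut7-/-, at -0.81 (-1.34 to -0.32). The log2 ratio was 1.40 (0.61 to 2.19) higher in Tut7-/-, but 0.58 (-0.21 to 1.37) with TMM factors. Ctrl held 0.941% and 0.495%, above both LPS times in each genotype at this scaling. In Tut7-/- the 2 h library stood above Ctrl with TMM factors, which took Ctrl as 57340 reads and 2 h as 38275. Rab10 overlaps Rab10os on the other strand, as Usp18 does Gm44148 and Gpr65 does Gm47566. Further genes named below or above overlap others too. On the other strand these include Rnf213 with A930037H05Rik, Tspo with Mcat and Prdx5 with Trmt112. On the same strand they include mt-Atp6 with mt-Atp8 and mt-Co3, and Plec with Parp10.

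Reads of mt-Atp6 had smaller shares at 4 h in both genotypes, and those of mt-Rnr2 in wild type. The mitochondrial-encoded list had 4 of 15 genes with a read, and its summed share went from 0.152% to 0.0264% in wild type and from 0.114% to 0.0345% in Tut7-/-. Of 2 members with 10 or more reads, both were called lower in wild type, where 29.8% of all genes were, and 1 in Tut7-/-, where 21.1% were, with medians of -2.54 and -1.29. In Tut7-/- most of the fall of the sum lay in mt-Atp6. Reads of mt-Atp6, a subunit of ATP synthase, went from 33 to 6 in wild type and from 46 to 7 in Tut7-/-, a log2 ratio of -2.71 (-4.35 to -1.53) and -2.27 (-3.75 to -1.20). Those of mt-Rnr2, the large mitochondrial rRNA, went from 34 to 8 in wild type, and were 13 and 8 in Tut7-/-, where the interval included equal shares.

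The remaining genes lower in both genotypes had few reads. Zfp622, a zinc finger protein of ribosome maturation, had 12 and 21 reads at 2 h in wild type and Tut7-/- and 0 at 4 h in both, at least 5.08-fold and at least 5.45-fold lower. Wdr34, a dynein-2 intermediate chain, had 29 and 12 reads at 2 h and 0 at 4 h in both. Dcxr, a carbonyl reductase, had 21 reads at 2 h in each genotype, 9 at 4 h in wild type and 2 in Tut7-/-. Cst3, the cysteine protease inhibitor cystatin C, had 25 and 16 reads in wild type and 61 and 16 in Tut7-/-, and was lower in both though under 2-fold in wild type, where its interval of -1.99 to -0.03 came close to 0. With TMM factors that interval included 0, at a log2 ratio of -0.31. Gm43430 lies inside Nfkb1 on the same strand, and Gm47079 overlaps Icam1, Icam4 and Icam5, so their reads cannot be given to 1 gene. Gm43430 was 1.65-fold lower in wild type and 1.58-fold in Tut7-/-, but its wild-type log2 ratio was -0.056 with TMM factors and -0.016 with DESeq2 size factors, where the interval included 0. Gm47079 had 19 and 12 reads at 2 h and 0 at 4 h.

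Over all genes the log2 ratios of the genotypes were only weakly alike. Over the 171 genes, those of wild type and Tut7-/- had a Pearson correlation of 0.085 across genes (Spearman 0.11). Of these genes, 27 had 0 reads at both times in wild type and 28 in Tut7-/-. Their ratio in that genotype came only from the added 0.5 read and the library sizes, which lowers what the correlation can show. Over the 61 genes with a read in each LPS library it was 0.27 (Spearman 0.25), and over the 21 genes with 100 or more reads 0.56 (Spearman 0.61). Genes are not independent replicates, and the values of a genotype share their library sizes. Of those 21 genes, 9 had a larger share at 4 h in both genotypes, 8 a smaller one in both and 4 went opposite ways. Depth goes with this difference. Of the 171 genes, 45 had all their reads in 1 of the 4 libraries, 34 in 2, 31 in 3 and 61 in all 4, whereas all 21 genes with 100 or more reads had a read in each library.

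**Figure D3:**
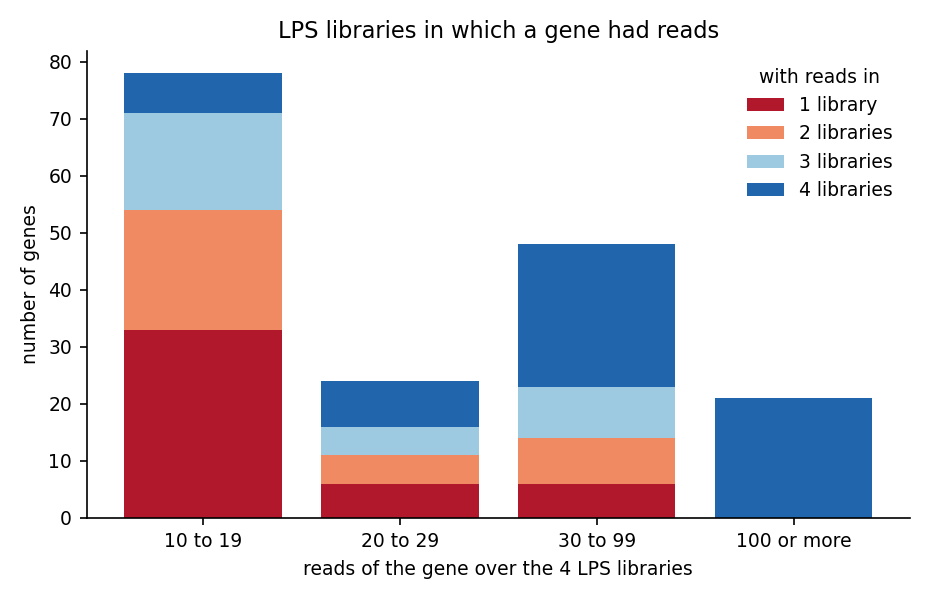
Number of genes (y axis) by reads of the gene over the 4 LPS libraries (x axis), with colours for the number of LPS libraries that held a read of it. Of 78 genes with 10 to 19 reads, 33 had all of them in 1 library, and the 21 genes with 100 or more reads were read in all 4.

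Many calls came from such genes. In wild type 60 genes had reads at 1 of the times only, 34 at 2 h and 26 at 4 h, and they gave 46 of its 78 calls, and in Tut7-/- 64 such genes, 46 at 2 h and 18 at 4 h, gave 46 of 67. Among the 61 genes with a read in each LPS library, 6 were called higher and 18 lower in wild type, and 11 and 7 in Tut7-/-, with 3 higher and 4 lower in both. Dst, a cytoskeletal linker, had 40 reads in wild type at 4 h and 0 in the other 3 LPS libraries. Plec, another linker of this kind, had 37 reads in wild type at 2 h and 0 elsewhere among them. Nfe2l2 (NRF2), the regulator of the oxidative stress response, had 37 reads in Tut7-/- at 2 h and 0 in the others. Reads that all lie in 1 library of an amplified pool can come from few molecules, and this was not tested.

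**Figure D4:**
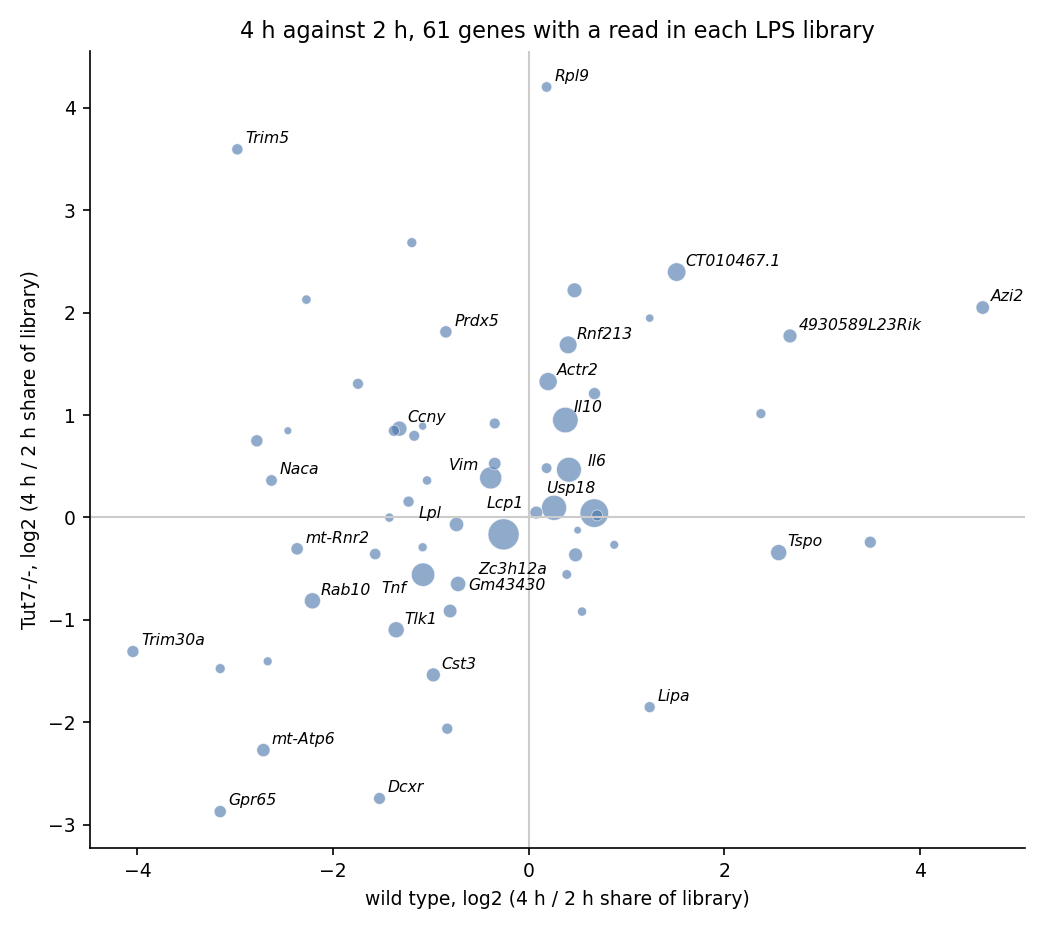
Log2 ratio of the share at 4 h to that at 2 h in wild type (x axis) and in Tut7-/- (y axis) for the 61 genes with a read in each LPS library, with point size rising with the reads of the gene and the genes named by rule labelled, except 1. Gpr65, mt-Atp6 and Tlk1 lie at the lower left and CT010467.1, Azi2 and 4930589L23Rik at the upper right, while Trim5 and Tspo lie apart from both.

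Of 79 cytoskeleton and adhesion genes listed, 8 had 10 or more reads, of which 2 were called higher and 1 lower in wild type, 1 higher and 2 lower in Tut7-/-, and 0 the same way in both. Over all 171 genes the shares were 15.8% and 29.8%, 18.1% and 21.1%, and 2.92% and 4.68% the same way in both, so nothing particular to the list is read from its counts. The list medians were 0.35 and 0.20, and with genes at 0 reads set to their bound the latter was -0.038, so no direction is given. Vim, the intermediate filament vimentin, had 638 reads (1.43%) in wild type at 2 h and 620 (1.09%) at 4 h. Its Tut7-/- counts were 798 (1.43%) and 812 (1.86%). Its log2 ratio was -0.39 (-0.55 to -0.23) and 0.39 (0.24 to 0.53), but in wild type it was 0.28 with TMM factors, and in Tut7-/- 0.044 with DESeq2 size factors, where the interval included 0. Actr2, a subunit of the Arp2/3 complex that nucleates branched actin, had 106 and 155 reads in wild type, a ratio of 1.15 (0.893 to 1.49). Its Tut7-/- counts of 115 and 225 gave a ratio of 2.51 (2.00 to 3.17). With TMM factors the wild-type log2 ratio of Actr2 was 0.86, and without Zc3h12a and Il6 -0.14. Nckap1l (HEM1), a subunit of the WAVE complex of blood cells, had 7 and 36 reads in wild type but 56 and 0 in Tut7-/-. Lcp1 (L-plastin), an actin-bundling protein, had 16 to 23 reads in each library and log2 ratios of 0.08 (-0.88 to 1.09) and 0.05 (-1.01 to 1.06). Anxa2 (annexin A2), a membrane-binding protein, had 7 and 20 reads in wild type and 14 and 0 in Tut7-/-.

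Among lipid, lysosome and redox genes of macrophages, Tspo was called higher in wild type, and in Tut7-/- Lipa was called lower and Prdx5 higher. Of 73 listed, 7 had 10 or more reads, with 1 called higher and 2 lower in wild type, 1 higher and 3 lower in Tut7-/-, and 1 lower in both, the lysosomal protease gene Ctsd. The shares over all genes just given are the background of these counts too, and nothing particular to the list is read from them. The list medians were -0.74 and -1.85, or -0.79 and -0.38 with genes at 0 reads set to their bound and genes without one left out. Tspo, the translocator protein of the outer mitochondrial membrane, had 18 reads (0.0403%) in wild type at 2 h and 138 (0.243%) at 4 h. The Tut7-/- libraries held 72 reads (0.129%) and 44 (0.101%) of it. The ratio was 6.03 (3.68 to 10.5) in wild type and 0.785 (0.527 to 1.16) in Tut7-/-, and the log2 ratio was 2.90 smaller in Tut7-/-, an interval of -3.78 to -2.02 for Tut7-/- minus wild type. Lpl, lipoprotein lipase, had 29 and 22 reads in wild type and 50 and 37 in Tut7-/-, and both intervals included equal shares. Lipa, the lysosomal acid lipase, had 2 and 7 reads in wild type and 25 and 5 in Tut7-/-, where the share was 3.89-fold lower. Prdx5, a peroxiredoxin, had 20 and 14 reads in wild type and 7 and 20 in Tut7-/-, a ratio of 3.67 (1.49 to 10.3) in the latter.

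Few genes of ribosomal proteins and translation were read. Of 97 listed, 3 had 10 or more reads, with 1 called lower in wild type and 2 higher in Tut7-/-, and medians of 0.14 and 4.06, the latter 1.36 at the bound. Rpl9, a protein of the large ribosomal subunit, had 4 and 6 reads in wild type and 1 and 21 in Tut7-/-. It has a near-identical pseudogene, so its reads are uncertain. Naca, a subunit of the nascent polypeptide-associated complex, went from 36 reads to 7 in wild type and had 2 and 2 in Tut7-/-. Of 63 nuclear RNA, chromatin and splicing genes 4 had 10 or more reads, with 1 called higher and 1 lower in wild type, 0 higher and 1 lower in Tut7-/- and medians of 2.24 and 0.22, or 0.88 and 0.072 at the bound. Of 36 histone genes, Hist1h1b alone had 10 or more reads, with 10 and 1 in wild type and 12 and 3 in Tut7-/-, and was called lower in wild type. Over all 171 genes, 15.8% were called higher and 29.8% lower in wild type, and 18.1% and 21.1% in Tut7-/-. With so few members, nothing particular to these lists is read from their counts.

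The difference between genotypes was larger than counting error at 32 genes (18.7%) where Tut7-/- was the more positive and at 17 (9.94%) where it was the more negative. With DESeq2 size factors the split turned to 13 and 30. The split thus depended on the scaling, and with 1 library for each condition a difference between genotypes cannot be told apart from one between libraries.

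A test over both genotypes used the 6 libraries in an additive model of time and genotype, which treats departure from additivity as error. By edgeR's quasi-likelihood test with Benjamini-Hochberg adjustment, 0 of 115 genes (0%) differed between 4 h and 2 h at an adjusted p of 0.05. At an unadjusted p under 0.05, 4 (3.48%) were higher and 6 (5.22%) lower, against 3 and 5 by the DESeq2 Wald test and 4 and 9 by limma-voom, which also called 0 after adjustment. CT010467.1 came first, at a log2 difference of 1.97 ± 0.49 (SE) and an edgeR adjusted p of 0.266, and it was higher in both genotypes. Each SE here was worked back from the F value of the test, as the size of the log2 difference over the square root of F. With TMM factors its adjusted p was 0.0154, and it was also called with DESeq2 size factors, without the 10 most abundant genes in the library size, without either Ctrl library and in the 4 LPS libraries alone, where edgeR's adjusted p lay between 0.000544 and 0.0387. Over all 16 alternatives of the model, edgeR, DESeq2 and limma-voom included, its adjusted p ran from 0.000544 to 1, the highest without the 2 h library of Tut7-/-. Il10 was at 0.67 ± 0.27 and Tnf at -0.80 ± 0.32, both with an edgeR adjusted p of 0.397 and between 0.149 and 1 under the alternatives. In simulated data of this design, 6% of 4-fold and 23.5% of 16-fold changes over 115 genes were recovered, so an absent call says little here.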

How the data were processed

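Gene-specific TAIL-seq libraries of BMDMs were read from the deposited tables of raw read counts per Ensembl gene, 1 for each of the 6 libraries, which the authors made by alignment with HISAT2 to the mm10 mouse reference. The gene counter, versions, strand and removal of PCR duplicates are not stated in the sources used. Total counts were 21408 to 56718 per library, and a count of 0 allows 3 reads, 0.00529% to 0.00689% of an LPS library. The deposited lists of Il6 reads were not used, because none was at hand for 2 h.

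Groups were taken from the sample titles, which give genotype and time. For genes with 10 or more reads over the 4 LPS libraries, log2 ratios of library shares were computed after adding 0.5 read. Intervals of 95% were exact conditional binomial ones (scipy 1.17.1), without p-values, those of differences between genotypes were approximate (SE of log counts), and folds against 0 reads used 3 reads in that library. The additive model was fitted with edgeR 4.0.16 (R 4.3.3) on genes that passed filterByExpr, and its p-values hold no estimate of the spread between animals. DESeq2 1.42.0, limma 3.58.1, other scalings, filters and pseudocounts and each library left out were alternatives. Scripts were tested on simulated data. Names and coordinates came from GENCODE M21, which held the same version of 935 of the 964 identifiers with a read.

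Genes were named by rule: the study's genes, up to 12 higher and 12 lower in both genotypes (30 or more reads, intervals without 0), up to 8 opposite, the 5 most abundant per library, list members with 30 or more reads and edgeR calls. Other genes named (Ccl9, Ctsd, Stat2, Hist1h1b) were picked after their values were seen. The members and lists were chosen with earlier results of these data known. Of the genes that met the rule, 1 is not reported here.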

Additional observations from a re-analysis of the deposited data

Results flagged for a closer look

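In 8 of the 171 genes (4.68%) the counting interval left out equal shares in each genotype and the share moved opposite ways from 2 h to 4 h. The 6 of these with 30 or more reads are given here. In Ccny and Vim the change was under 2-fold in at least 1 genotype. With 1 library for each condition, the difference between genotypes was not tested. The values are log2 ratios of 4 h to 2 h in Tut7-/- minus those in wild type. Phrf1, a RING finger protein gene that overlaps Irf7 on the other strand, was at 10.02, with 24 and 2 reads in wild type and 0 and 32 in Tut7-/-. Trim5, an antiviral restriction factor of a gene family with close paralogs, was at 6.57, with 15 and 2 reads and 2 and 23 reads. The WAVE complex gene Nckap1l was at -8.40. Pold4, a subunit of DNA polymerase delta, was at -7.38, with 4 and 39 reads and 15 and 0 reads. Ccny, which encodes cyclin Y, was at 2.19, with 28 and 14 reads and 59 and 84 reads, far under its Ctrl counts of 716 and 582. Its wild-type interval included 0 under 3 other scalings: the log2 ratio was -0.66 with TMM factors, -0.62 with those of DESeq2 and -0.92 once the top 10 genes were dropped from the library size. Vim was at 0.77, and the direction in wild type turned with the scaling.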

How the results depend on the processing

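No paired analysis was possible because each genotype and time had 1 library and the labels carry no replicate numbers. Depth limits the comparison to abundant genes. Among gene counts, those called higher in wild type were 42 with TMM factors and 43 with DESeq2 size factors. Genes more positive in Tut7-/- were 13 with either, and those more negative were 30 with DESeq2 size factors. With Zc3h12a and Il6 left out of the library size, 15 genes were lower in both genotypes. With no filter, 47 genes were higher in Tut7-/-. With 50 or more reads, 8 were higher and 12 lower in wild type, 8 and 8 in Tut7-/-, 3 and 4 in both, 3 opposite, and 16 more positive and 8 more negative in Tut7-/-, since fewer genes were compared. With a read in each LPS library, an alternative added after seeing the data, these were 6 and 18, 11 and 7, 3 and 4, and 2 opposite. The edgeR test called 1 gene higher, CT010467.1, with DESeq2 or TMM factors, with a library size that omits the 10 most abundant genes and in the 4 LPS libraries only, and between 0 and 1 with each library left out (1 without wild-type Ctrl or without Tut7-/- Ctrl). Among log2 ratios whose interval left out 0, those that changed sign were of Zc3h12a in wild type (0.41 with TMM factors, 0.45 with DESeq2 size factors, 0.14 without the 10 most abundant genes), Vim in wild type (0.28, 0.32 and 0.010 likewise), and Usp18, at -0.076 in wild type without Zc3h12a and Il6, and in Tut7-/- at -0.057 with TMM factors, -0.25 under DESeq2's and -0.096 without those genes. Differences of Tut7-/- from wild type that changed sign included those of Tnf (-0.30 with TMM factors, -0.53 with DESeq2's), Il10 (-0.24 and -0.47) and Vim (-0.043 and -0.27). That of Il6, whose interval held 0, became -0.76 and -0.99. The Zc3h12a difference, 0.09 at library size, turned too, with TMM log2 ratios of 0.41 in wild type and -0.32 in Tut7-/-. That of CT010467.1, 0.88 at library size, turned with DESeq2 size factors, at 2.22 in wild type and 2.05 in Tut7-/-. Further differences whose interval held 0 are not all listed. Of ratios whose interval held 0, those of Actr2, Lcp1 and Rpl9 in wild type and Lcp1 in Tut7-/- changed sign. These signs changed because the scaling moves every gene of a genotype by 1 value. A pseudocount of 2 reads changed no direction among named genes and moved no count of calls by over 1.5 times where the count was compared.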
